A study of Mus musculus with 4 samples.

Results

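The FOXO factors Foxo1, Foxo3 and Foxo4 were followed with 5 other regulators of quiescence (Txnip, Tob1, Fbxw7, Tsc1 and Stk11). The cells were long-term haematopoietic stem cells (HSCs) of mice after a low-dose irradiation experiment. The 8 genes were listed by symbol for their known roles, with earlier results of these data known. Each had its own probe set, identified by its Entrez gene number, among 23185 named genes and 25206 probe sets on the array. Marrow cells that were lineage-negative, c-Kit-positive and Sca-positive received 0, 0.02, 0.1 or 0.5 Gy of γ-irradiation and were then given to lethally irradiated recipients. The long-term HSC gate (the same 3 criteria, with Flk2 and CD48 absent and CD150 present) was sorted 6 months later and its total RNA hybridised, 1 array per dose. The 0 Gy group was transplanted and sorted in the same way as the irradiated groups, so all 4 groups carry the effects of transplantation. Strain, age and the number of recipients behind each array are not given, and the gate as written names no donor marker.

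Quiescent stem cells stay out of the cell cycle for long periods and are protected from damage and exhaustion by doing so. FOXO factors are transcription factors that turn on genes for cell cycle arrest, antioxidant defence and stress resistance. Growth factor signals through PI3K and AKT phosphorylate them and keep them out of the nucleus, so their activity is set largely after translation and their mRNA reports it only in part. In mice, loss of the FOXO factors, of the mTOR inhibitor Tsc1, of the kinase LKB1 (Stk11), of the ubiquitin ligase subunit Fbxw7 or of the thioredoxin inhibitor Txnip drives HSCs out of quiescence or depletes them. Tob1 is an antiproliferative protein of the TOB and BTG family and is best known in quiescent T cells.

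Promoter sequence was taken from RefSeq (GRCm38.p6), in windows from 250 bases before to 50 bases after each start. Windows were present for 7 of the 8 genes, 9 windows in all, and Foxo4 had no entry. A FOXO core motif, GTAAACA on either strand, lay in 2 of the 9 windows, those of Txnip and Stk11, against 3.65% of all 32851 windows. The Txnip window also held a paired E-box, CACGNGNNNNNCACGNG, searched on both strands. Such a pair is called a carbohydrate response element and binds the glucose-sensing MondoA and MLX factors. It was present in 0.0487% of all windows. Tob1 had neither motif but had a TATAAA box at -47 to -42, a hexamer found in 13.6% of windows on either strand. Fbxw7 also held this hexamer, at 11 to 16 on the minus strand. In the stretches below, capitals mark the FOXO core at -121 to -115 and the carbohydrate response element at -85 to -69 of Txnip, the FOXO core at 17 to 23 of Stk11, and the TATAAA box of Tob1. Txnip and Stk11 are shown because they hold the FOXO core, and Tob1 because it stood furthest from 0 Gy. The Txnip stretch is chr3:96557777-96557926, the Stk11 stretch chr10:80115800-80115828 and the Tob1 stretch chr11:94211354-94211453, all on the plus strand. A match of letters is a description and shows no binding.
Txnip: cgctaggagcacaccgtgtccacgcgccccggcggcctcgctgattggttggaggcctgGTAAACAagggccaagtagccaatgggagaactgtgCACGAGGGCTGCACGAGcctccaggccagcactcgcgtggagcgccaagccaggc
Stk11: ggcgcagggcgGTAAACAagatggcggcg
Tob1: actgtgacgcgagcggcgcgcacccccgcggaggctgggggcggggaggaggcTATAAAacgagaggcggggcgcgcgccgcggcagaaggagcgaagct

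The deposited values are log2 intensities, with base 2 inferred from their range of 1.22 to 13.02. With 1 array per dose there is no spread within a dose, and the difference between any 2 arrays has no replicate check and no p-value. The number of arrays limits the precision. A gene was kept for counting if its mean over the arrays reached the median of such means over all named genes (4.06). This left 11593 genes, and all 8 genes of interest passed with every one of their values above that level. Array medians lay between 4.01 and 4.07. Of 12 markers of long-term HSCs, 10 had a row and all 10 were kept. The gate-defining Kit and Slamf1, which encodes CD150, had log2 levels of 10.12 to 10.57 and 7.16 to 8.65. Flt3, which encodes Flk2, and Cd48 had 4.46 to 5.44 and 3.08 to 4.13. Cd34, a marker of later progenitors in the mouse that the gate as written does not name, had 8.68, 7.79, 9.77 and 9.70 at 0, 0.02, 0.1 and 0.5 Gy. Markers of other cells differed between arrays. The linear intensities of 13 neutrophil and granulocyte progenitor genes summed to 375, 737, 1247 and 686 at 0, 0.02, 0.1 and 0.5 Gy, those of 8 plasma cell genes to 1390, 2549, 752 and 597, and those of 11 monocyte, macrophage and dendritic genes to 2451, 2109, 1038 and 1967. For 9 erythroid genes the sums were 2936, 2271, 3546 and 4061. In these lists 6 neutrophil, 2 plasma cell, 7 monocyte and 1 erythroid gene did not pass the filter, among them the monocyte receptor gene Csf1r at 3.11 on all 4 arrays.

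**Figure D1:**
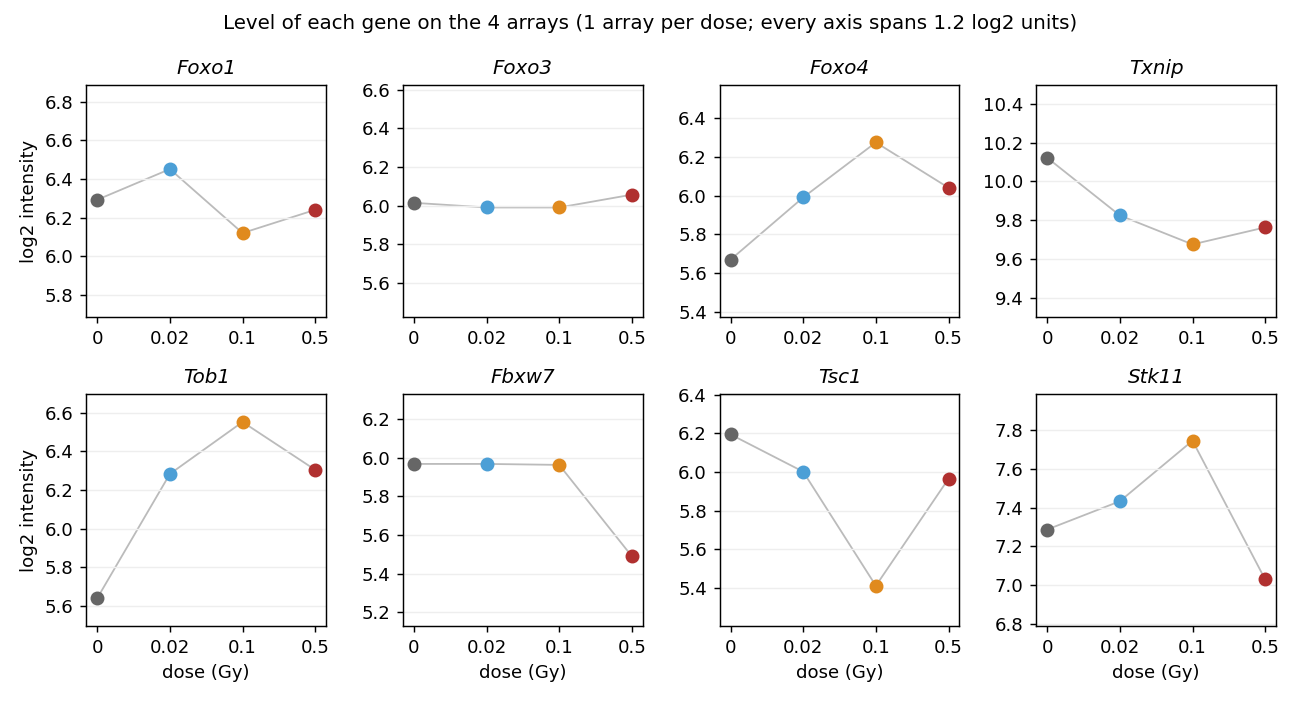
Log2 intensity (vertical axis) of each of the 8 genes at 0, 0.02, 0.1 and 0.5 Gy (horizontal axis, 1 array per point, doses evenly spaced). Every panel spans 1.2 log2 units, so heights can be compared. Tob1 and Foxo4 were lowest and Txnip highest at 0 Gy, Tsc1 was lowest at 0.1 Gy, Fbxw7 was lowest at 0.5 Gy, and Foxo3 was nearly level.

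The FOXO factors themselves came first. Foxo3, the FOXO factor most closely tied to HSC maintenance in mice, had log2 levels of 6.02, 5.99, 5.99 and 6.06 at 0, 0.02, 0.1 and 0.5 Gy. Its 4 values spanned only 0.07, and 91.7% of kept genes had a range at least as wide. The values at 0.02 and 0.1 Gy were identical to the last deposited digit, which was the case for 16.5% of kept genes. Foxo1 had 6.29, 6.45, 6.12 and 6.24, with the highest value at 0.02 Gy and the lowest at 0.1 Gy. Its log2 differences from 0 Gy were 0.16, -0.17 and -0.05 at 0.02, 0.1 and 0.5 Gy, and at least as large a difference was seen in 52.6%, 48.1% and 74.3% of kept genes. Neither Foxo3 nor Foxo1 reached 1.5-fold (0.585 on the log2 scale) in any pair of arrays.

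Foxo4 was the FOXO factor with the widest range. It had 5.67, 5.99, 6.27 and 6.04 at 0, 0.02, 0.1 and 0.5 Gy, so the 0 Gy array was the lowest and the 0.1 Gy array the highest. The log2 differences from 0 Gy were 0.32, 0.61 and 0.37, or 1.25-, 1.52- and 1.29-fold higher, and 12.2% of kept genes were at least as far from 0 Gy at 0.1 Gy. The 3 irradiated arrays lay within 0.28 of each other. With each irradiated array set against the mean of its 3 companions, Foxo4 was at -0.0042, 0.37 and 0.06, short of 1.5-fold. That mean holds the other irradiated arrays, so by construction it shrinks a shift that all irradiated arrays share. Foxo6, the remaining mammalian FOXO gene and mainly a neuronal one, had 4.41, 4.08, 4.38 and 4.26, close to the filter level.

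Tob1 stood furthest from 0 Gy. Its log2 level was 5.64, 6.28, 6.55 and 6.30 at 0, 0.02, 0.1 and 0.5 Gy. The irradiated arrays lay within 0.27 of each other and all above the 0 Gy array. It was 1.56-fold higher at 0.02 Gy, 1.88-fold at 0.1 Gy and 1.58-fold at 0.5 Gy, and was past 1.5-fold at each dose. Differences at least as large occurred in 10.6%, 5.41% and 11.3% of kept genes. These 3 differences share the single 0 Gy array, so they do not stand for independent observations. With each irradiated array set against the mean of its 3 companions, Tob1 was at 0.12, 0.48 and 0.15, short of 1.5-fold. A shift shared by all irradiated arrays is shrunk by this control, so the smaller values do not show that it is absent.

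Txnip lay on the other side of 0 Gy. It encodes the arrestin-like protein that binds thioredoxin and limits glucose uptake. Its log2 levels were 10.12, 9.82, 9.67 and 9.76, with the 0 Gy array the highest and the irradiated arrays within 0.15 of each other. The differences were -0.30, -0.45 and -0.36, 1.23-, 1.36- and 1.28-fold lower, short of 1.5-fold at every dose. As many as 33.2%, 19.5% and 28.4% of kept genes were at least as far from 0 Gy. These differences also share the single 0 Gy array. With each irradiated array set against the mean of its 3 companions, which shrinks a shared shift, Txnip was at -0.03, -0.23 and -0.11.

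The mTOR inhibitor was lowest at 0.1 Gy, and the ubiquitin ligase subunit and the upstream kinase at 0.5 Gy. Tsc1, which with Tsc2 restrains mTOR complex 1, had 6.19, 6.00, 5.41 and 5.96 at 0, 0.02, 0.1 and 0.5 Gy. Its 0.1 Gy array stood apart at the low end, 1.72-fold below 0 Gy (log2 difference -0.78, 7.33% of kept genes at least as far) and 0.59 log2 units below 0.02 Gy. Fbxw7, the substrate-binding subunit of a ubiquitin ligase that destroys MYC, cyclin E and NOTCH, had 5.97, 5.97, 5.96 and 5.49. The 0 and 0.02 Gy arrays had the same deposited value, as did 15.0% of kept genes, and the 0.5 Gy array stood apart at -0.48 from 0 Gy (19.4% of kept genes at least as far). RefSeq gives 3 promoter windows for Fbxw7, and the single probe set does not separate its isoforms. Stk11, which encodes LKB1, the kinase that activates AMPK, had 7.29, 7.43, 7.75 and 7.03. It was highest at 0.1 Gy (0.46 above 0 Gy) and lowest at 0.5 Gy (-0.26), and the 0.5 Gy array was 1.64-fold below the 0.1 Gy array, a distance reached by 8.32% of kept genes.

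Set beside all kept genes, the 8 genes differed in direction. At 0.02 Gy, 1 of 8 was at least 1.5-fold higher than at 0 Gy (Tob1; 6.44% of kept genes) and 0 were lower (6.2%). At 0.1 Gy, 2 were higher (Tob1 and Foxo4; 5.5%) and 1 lower (Tsc1; 7.48%). At 0.5 Gy, 1 was higher (Tob1; 5.92%) and 0 lower (8.25%). At 2-fold, 0 of the 8 genes were past the line at any dose, where 2.48%, 1.59% and 1.63% of kept genes were higher and 1.55%, 2.68% and 3.01% lower at 0.02, 0.1 and 0.5 Gy. The median log2 difference over the 8 genes was 0.07, -0.01 and -0.14 at 0.02, 0.1 and 0.5 Gy, against 0.00 for all kept genes at each dose. The median absolute difference was 0.18, 0.45 and 0.31, against 0.17, 0.16 and 0.18 for all kept genes. At 0.1 Gy the 8 genes were thus spread to both sides, with Tob1, Foxo4 and Stk11 above 0 Gy and Tsc1, Txnip and Foxo1 below it. On the same 0.1 Gy array the granulocyte marker sum was highest. The monocyte, macrophage and dendritic sum was lowest, through Cd68 and the class II genes Cd74, H2-Aa and H2-Ab1, while the median over all 11 genes of that list was 0.00. The long-term HSC marker sum was 3720 at 0.1 Gy, against 3885 at 0 Gy. Over its 10 genes the median was -0.21, with 3 at least 1.5-fold lower (7.48% of kept genes) and 0 higher (5.5%). Vwf was the furthest at -1.44, while Procr and Kit were at 0.30 and 0.24. Cd34, outside that list, was at 1.09. The part of these in the differences was not tested. In RNA from a sorted population, fewer cells of a type and less RNA per cell cannot be told apart.

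**Figure D2:**
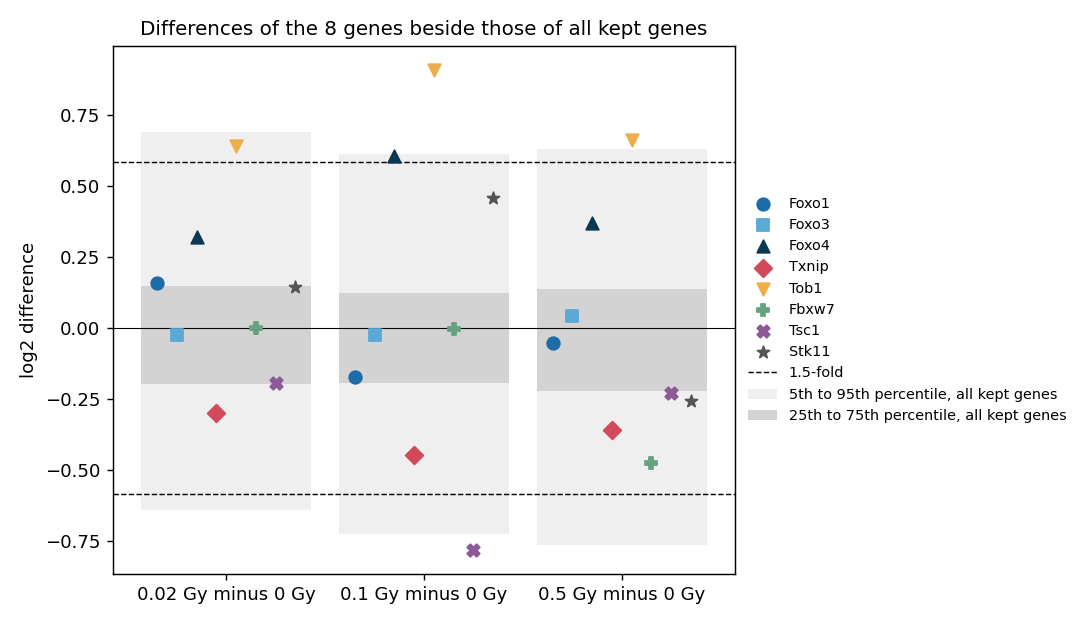
Log2 difference from 0 Gy (vertical axis) of the 8 genes (symbols) at 0.02, 0.1 and 0.5 Gy. Grey bars span the 25th to 75th and the 5th to 95th percentiles of 11593 kept genes, and dashed lines mark 1.5-fold. Tob1 lay above 1.5-fold at all 3 doses, and Tsc1 lay below the 5th percentile at 0.1 Gy.

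Irradiated arrays were also set against each other. At 0.1 Gy against 0.02 Gy, 0 of 8 were at least 1.5-fold higher (5.9% of kept genes) and 1, Tsc1, was lower (8.15%). At 0.5 Gy against 0.02 Gy, 0 were higher (5.92%) and 0 lower (8.62%). At 0.5 Gy against 0.1 Gy, 0 were higher (5.91%) and 1, Stk11, was lower (6.51%). The differences of Tob1 and Foxo4 between irradiated arrays reached at most 0.27 and 0.28 in size.

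2 models were fitted with limma over all kept genes, each with 2 residual degrees of freedom. The first set the mean of the 3 irradiated arrays against the 0 Gy array, with differences between doses as error. This model assumes that the single 0 Gy array varies like the irradiated ones, which 1 array cannot show. By it, Tob1 differed by 0.74 ± 0.15 (log2, standard error), with a Benjamini-Hochberg adjusted p = 0.327 in limma, and was higher on 3 of 3 irradiated arrays. Txnip differed by -0.37 ± 0.08, with an adjusted p = 0.345 in limma, and was lower on 3 of 3. Foxo4 differed by 0.43 ± 0.16, with an adjusted p = 0.547 in limma. The second model, a straight line in dose, gave Fbxw7 a fitted difference of -0.50 ± 0.07 (log2, standard error) at 0.5 Gy against 0 Gy, with an adjusted p = 0.306 in limma. That line rests on the 0.5 Gy array, since the other 3 values of Fbxw7 lay within 0.01 of each other. By limma, 0 of the 8 genes and 0 of 11593 kept genes (0%) passed an adjusted p of 0.05 in either model. At an unadjusted p under 0.05, 2 of 8 and 1260 of 11593 passed in the first model, and 1 of 8 and 1425 of 11593 in the second. With so few degrees of freedom, a gene that missed the threshold is not shown to be level between doses. The counts of 3 of 3 irradiated arrays rest on the single 0 Gy array and are not independent observations.

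The genes around the 8 were read next, from 10 lists of upstream regulators, partners and targets, of which 160 of 167 genes had a row. Among FOXO target genes, 28 of 32 with a row were kept. At 0.02 Gy, 7 of the 28 were at least 1.5-fold higher than at 0 Gy and 0 lower (6.44% and 6.2% of kept genes); the list median was 0.22. At 0.1 Gy, 4 were higher and 2 lower (5.5% and 7.48% of kept genes; median -0.03). At 0.5 Gy, 3 were higher and 2 lower (5.92% and 8.25%; median 0.00). Over all 32 with a row, the median at 0.02 Gy was 0.07 and the count was again 7 higher and 0 lower. The long-term HSC marker sum was also highest on the 0.02 Gy array (5148, against 3885 at 0 Gy), and that of 17 mitosis genes lowest (4631, against 6599). The plasma cell marker sum was highest there too, as was that of 8 B cell genes (555, against 264 at 0 Gy). In the B cell list, Cd79a and Cd79b were at 2.81 and 1.04 from 0 Gy. Pax5 had the same value on all 4 arrays, 5 genes did not pass the filter, and the median over all 8 was 0.03. The part of any of these in the target gene values was not tested.

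Bcl6, a transcriptional repressor, had log2 levels of 3.85, 6.41, 4.69 and 4.69 at 0, 0.02, 0.1 and 0.5 Gy, the first of them below the filter level. Cdkn1a, which encodes the cell cycle inhibitor p21 and is also a p53 target, had 7.87, 9.68, 8.82 and 9.52 and was 3.5-fold higher at 0.02 Gy. Both were lowest at 0 Gy and highest at 0.02 Gy. S1pr1, a receptor that guides lymphocyte exit from tissue, had 7.03, 8.04, 7.29 and 7.51, and Trib1, a pseudokinase, had 6.40, 7.45, 6.15 and 6.28. Klf2, a factor of quiescent T cells, stood at 0.42, 0.90 and 0.42 from 0 Gy, and Klf4 at 1.01, 0.07 and 0.87. Ddit4, a stress-induced inhibitor of mTOR, stood at 0.71, -1.13 and -0.15, and Bnip3, a mitophagy receptor, at -0.41, 0.03 and -0.83. Cdkn1b, which encodes the FOXO-regulated inhibitor p27, had 7.24 on 3 arrays and 7.38 at 0.5 Gy. Of the target genes, kept or not, 28 had a promoter window, and the FOXO core motif lay in those of 3 (Bbc3, Bcl2l11 and Sesn1), against 1095 of 27025 genes in the whole promoter table.

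**Figure D3:**
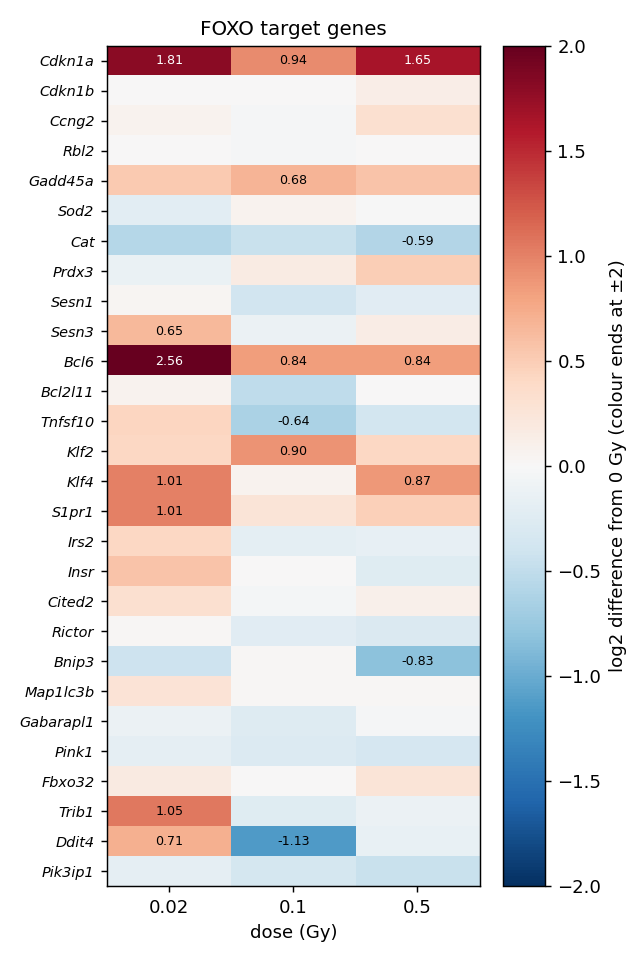
Log2 difference from 0 Gy (colour, ending at 2 in either direction) of the 28 kept FOXO target genes (rows, in list order) at 0.02, 0.1 and 0.5 Gy (columns). Values are printed where a difference reached 1.5-fold. The 0.02 Gy column holds 7 such values, all positive, and Cdkn1a and Bcl6 are past 1.5-fold in all 3 columns.

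Upstream of FOXO, 18 PI3K and AKT signalling genes were kept, with list medians of 0.00, 0.04 and -0.16 in order of dose. Of these, 2, 0 and 1 were at least 1.5-fold higher than at 0 Gy (6.44%, 5.5% and 5.92% of kept genes). Lower were 0, 1 and 0 (6.2%, 7.48% and 8.25%). Sgk1, a kinase that phosphorylates FOXO factors alongside AKT, had log2 levels of 5.73, 7.20, 4.97 and 5.64. It was 2.78-fold above 0 Gy at 0.02 Gy and below it at 0.1 Gy (-0.76). Pik3r2, a regulatory subunit of PI3K, was at 0.76 at 0.02 Gy from a 0 Gy level of 3.91, below the filter, and Phlpp2, an AKT phosphatase, at 0.60 at 0.5 Gy. Among 21 FOXO modifiers and cofactors, counted as above, 1 was higher at 0.02 Gy (6.44% of kept genes) and 1 lower at 0.1 Gy (7.48%). The first was Sirt3, a mitochondrial deacetylase, at 0.998, and the second Prmt6, an arginine methyltransferase, at -0.72. At 0.5 Gy, 3 were lower (8.25% of kept genes) and 0 higher (5.92%): Skp2, a ubiquitin ligase subunit for FOXO1 and p27, at -0.80, Smad3, a TGF-beta effector, at -0.67, and Sirt1, a FOXO deacetylase, at -0.62.

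In the LKB1 and AMPK list, 0 of 16 kept genes were at least 1.5-fold higher at any dose, where 6.44%, 5.5% and 5.92% of all kept genes were, and 1, 0 and 2 were lower (6.2%, 7.48% and 8.25%). Prkaa1, an AMPK catalytic subunit, had 8.17, 7.43, 7.66 and 6.82, highest at 0 Gy and lowest at 0.5 Gy, where it was -1.35 from 0 Gy. Prkaa2, the other catalytic subunit, stood at 0.27, 0.00 and -0.48 from 0 Gy. Its levels of 4.14, 4.41, 4.14 and 3.66 were close to the filter level or below it. Stradb, a pseudokinase partner of LKB1, was at -0.84 at 0.5 Gy, the dose at which Stk11 was also lowest. Its level there was 4.16, close to the filter level. The LKB1 partners Strada and Cab39 had exactly their 0 Gy values at 0.5 Gy (6.17 and 8.09), as did 13.8% of kept genes. Cab39l, also on the list, stood at -0.13, -0.19 and -0.39 from 0 Gy.

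Of 15 TSC and mTOR genes, 1, 1 and 0 were at least 1.5-fold higher in order of dose (6.44%, 5.5% and 5.92% of kept genes). Lower were 0, 1 and 0 (6.2%, 7.48% and 8.25%), and the median was 0.00 at each dose. Tsc2, the partner of Tsc1, had 7.17, 7.17, 7.19 and 7.17, so the low Tsc1 value at 0.1 Gy had no counterpart there. At 0.1 Gy, Ulk1, a kinase that starts autophagy, was at 0.62 and Ddit4 at -1.13.

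The list of the FBXW7 ligase and its substrates held 15 kept genes. At least 1.5-fold higher in order of dose were 1, 3 and 1 (6.44%, 5.5% and 5.92% of all kept genes). Lower were 0, 1 and 1 (6.2%, 7.48% and 8.25%), and the medians were 0.01, 0.01 and -0.01. Mycn had 7.83, 7.62, 6.49 and 6.49 and was -1.34 from 0 Gy at both 0.1 and 0.5 Gy. Myc stood at -0.35, 0.00 and 0.36. The cyclin E gene Ccne1 was at 0.47, 0.47 and 0.52, and Ccne2 at -0.52, 0.04 and -0.05. Jun was at 0.42, 0.67 and 0.64, Notch1 at 0.62 at 0.02 Gy, and Mybl2, a cell cycle transcription factor, and Usp28, a deubiquitinase that opposes FBXW7, at 0.66 and 0.65 at 0.1 Gy. Of the other subunits of the ligase, Skp1 and Cul1 stayed within 0.24 and 0.10 of 0 Gy, and Rbx1 stood at 0.33, 0.34 and 0.20.

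Among 12 genes of the TOB and BTG family and the CCR4-NOT deadenylase that it recruits, Btg2 had 7.96, 9.72, 8.03 and 8.61, with its highest value at 0.02 Gy, whereas Tob1 was highest at 0.1 Gy. Tob2, the paralog of Tob1, stood at -0.14, -0.04 and -0.01 from 0 Gy. Cnot7, a deadenylase subunit bound by TOB and BTG proteins, was at 0.48, -0.52 and 0.85, and Pabpc1, the poly(A)-binding protein, at 0.63 at 0.5 Gy. Cnot8, also on the list, was at -0.47, -0.54 and -0.38. Of the 12 genes, 1, 0 and 3 were at least 1.5-fold higher in order of dose (6.44%, 5.5% and 5.92% of kept genes). Lower were 0, 0 and 0 (6.2%, 7.48% and 8.25%), and the median was 0.00 at each dose.

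Around Txnip, 2, 0 and 1 of 14 kept genes were at least 1.5-fold higher in order of dose (6.44%, 5.5% and 5.92% of all kept genes). Lower were 0, 0 and 1 (6.2%, 7.48% and 8.25%). Arrdc4, an arrestin relative of Txnip that also responds to glucose, had 5.80, 5.64, 5.64 and 5.10 and was -0.70 from 0 Gy at 0.5 Gy. Arrdc3, another relative, was on the other side at 0.61, 0.39 and 0.35. Mlxip, which encodes MondoA, had the same value of 7.29 on all 4 arrays, as did 3.3% of kept genes for their own values. The glucose transporter gene Slc2a3 was at 0.75 at 0.02 Gy, and the mitochondrial thioredoxin reductase gene Txnrd2 at 0.98 at 0.5 Gy. Txn1, the thioredoxin that Txnip binds, stayed within 0.17 of 0 Gy.

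Among 19 other quiescence regulators, the medians were 0.02, -0.10 and 0.07, with 2, 1 and 2 higher (6.44%, 5.5% and 5.92% of kept genes) and 0, 2 and 0 lower (6.2%, 7.48% and 8.25%) at 0.02, 0.1 and 0.5 Gy. Beside Cdkn1a, the higher gene was the nuclear receptor Nr4a1, at 1.07 at 0.02 Gy and 0.77 at 0.5 Gy. Tek, the receptor for angiopoietin, and Ndn, which encodes the growth suppressor necdin, were at -0.82 and -0.72 at 0.1 Gy. The Ndn level there was 3.79, below the filter level. Tek is also on the long-term HSC list, where it is among the genes counted as lower at 0.1 Gy.

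**Figure D4:**
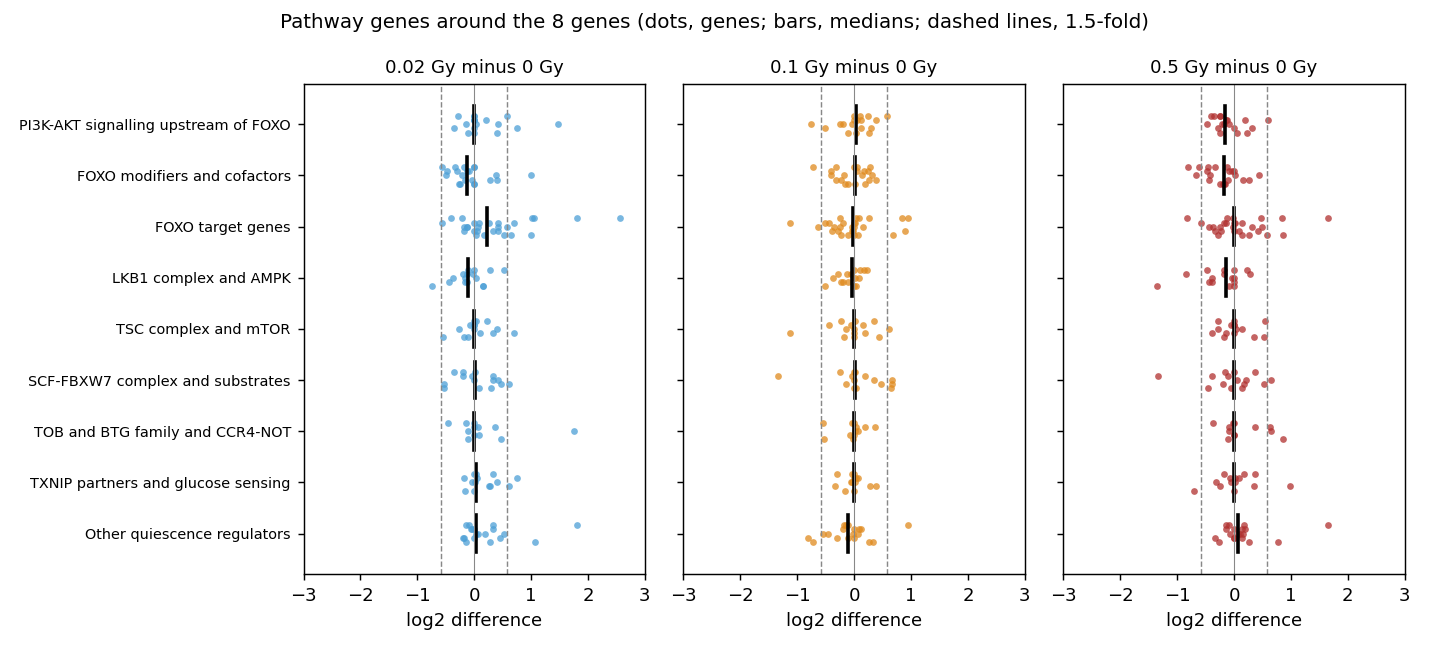
Log2 difference from 0 Gy (horizontal axis) of the kept genes of 9 pathway lists (rows; each dot is a gene, each black bar a list median) at 0.02, 0.1 and 0.5 Gy (panels), with dashed lines at 1.5-fold. The list medians lie between -0.18 and 0.22, and the highest is that of the FOXO target genes at 0.02 Gy.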

How the data were processed

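RNA was measured on 4 Affymetrix arrays, 1 per dose. Biotin-labelled cDNA was made with a whole-transcript kit, as the labels state. The authors deposited 1 log2 intensity per Entrez-gene probe set and array. Base 2 was inferred from their range, and the submitters' processing notes name Partek without a role or version. How background and arrays were corrected, and the annotation build, is not given in the sources used here. Values were used as deposited, without the 2021 probe sets that have no symbol. Differences between arrays were computed with Python 3.11.15, and both models with limma 3.58.1 in R 4.3.3 (lmFit, eBayes, adjustment over all 11593 kept genes). The fits were tested on simulated data. List genes were named if they were at least 1.5-fold from 0 Gy, up to 4 per list and dose. Direct partners, paralogs, further FBXW7 substrates and Cdkn1b were named in addition, after their values were seen. A further rule for genes resembling a member needed a span of 1 log2 unit, which 0 of the 8 reached. The 8 genes and all lists were chosen with earlier results of these data known.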

Additional observations from a re-analysis of the deposited data

How the results depend on the processing

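Under quantile normalization, median centring and cyclic loess, all 24 differences of the 8 genes from 0 Gy moved by at most 0.08 log2 units, and the 6 counts past 1.5-fold stayed at their values. Dropping the filter or using a stricter one (level 5.66, 7729 genes) could not change those counts, because all 8 genes passed either way. Each irradiated array was also set against the mean of its 3 companions rather than the 0 Gy array. Of the 8 genes, 0 were then higher at 0.02 Gy, 0 at 0.1 Gy and 0 at 0.5 Gy, and the median at 0.5 Gy was 0.0053. The share of all kept genes past 1.5-fold against that control was not computed, so these counts have no background beside them. By its construction that control holds irradiated arrays and shrinks a shift that all of them share. Tob1 was then at 0.12, 0.48 and 0.15 and Tsc1 at -0.64 at 0.1 Gy. At a threshold of 2-fold, 0 of the 8 were higher at 0.02, 0.1 or 0.5 Gy and 0 lower at 0.1 Gy. At 1.3-fold, 3 were higher (10.7% of kept genes) and 2 lower at 0.1 Gy (13.9% of kept genes) and 1 lower at 0.5 Gy (15.5%). The limma models called 0 of the 8 under every alternative run, including each array left out in turn where degrees of freedom remained, with lowest adjusted p-values of the 8 from 0.287 to 0.624 for irradiated arrays against 0 Gy and from 0.216 to 0.746 for the dose slope. Without the filter, limma called 213 of 23185 genes in the first model, against 0 of 11593 with it, and the cause was not tested. Leaving out the 0 Gy array in the first model leaves no contrast and was not run. No paired analysis was possible because each dose has 1 array.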
